A study of Mus musculus with 899 samples.

Results

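Plasma taken from C57Bl/6 mice at month 3 after whole thorax lung irradiation was compared with plasma of sham irradiated C57Bl/6 mice taken at the same time. The members were the samples labelled C57Bl/6 at month 3, which are 47 samples, or 5.23% of the plasma samples of the series. Of these, 31 came from irradiated mice (16 females and 15 males) and 16 from sham mice (8 females and 8 males). Both groups were mice of the same inbred strain, for which the labels name no transgene, drug or age, and they differed by a single dose of X-rays to the thorax with the rest of the body shielded. Each sample came from a different mouse, so a sample is the replicate, and each mouse was bled repeatedly from a time before irradiation to month 6 at the latest. All 47 mice belonged to the cohort that was followed beyond month 1. Of the irradiated mice, 15 carried the letter A in their names, which marked bleeding at day 2, and 16 the letter B, for bleeding at day 5. The sham mice were divided into 8 and 8. Samples before irradiation and at day 2 were not at hand for 4 of the irradiated mice, all of them females with the letter A. For these 4 the letter therefore marks no day 2 sample. Month 2 samples came from 36 irradiated mice, and 5 of those mice had no month 3 sample.

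Total reads per sample ranged from 440359 to 8974913 (median 1649620) in irradiated and from 1188039 to 3747794 (median 1682758) in sham mice. The depths therefore had similar medians and a wider range after irradiation. The most abundant miRNA of a sample held 20.8 to 59.1% of the reads of irradiated and 25.2 to 54.5% of those of sham mice. No samples had identical counts. Values are CPM (counts scaled to the normalized library size) on a log2 scale, so they are shares of the miRNA in plasma and not concentrations. Blood markers were looked at, although passing the filter, which was set over the whole series, does not test the labelled fluid. All 7 listed miRNA of red blood cells passed the filter on low counts, with a summed share of 1.23 to 6.51% (median 3.35%) of the reads in irradiated and 1.86 to 4.81% (median 3.07%) in sham mice. Whether hemolysis contributed to the results was not tested.

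MicroRNAs are short RNAs of about the length of the sequences shown here that pair with messenger RNAs, mainly through the seed at bases 2 to 8 of the miRNA, and lower the output of those messages. Cells release them into blood in vesicles and in complexes with proteins or lipoproteins, where they resist degradation. Some are made almost exclusively in a single cell type, and these are used as circulating markers of damage to that cell type. Late lung injury after thoracic irradiation develops over weeks to months, first as pneumonitis and then as fibrosis. The comparison asks which plasma miRNA differ in the irradiated mice in that period.

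The mature sequences of the differentially expressed miRNA are shown because neighbours in this list belong to the same gene clusters or share a seed, and because both arms of a single hairpin fell. They are RefSeq sequences placed on GRCm38.p6, written 5′ to 3′ with the seed (bases 2 to 8) in capitals. Of the 483 miRNA tested, 415 were matched to such a sequence. The list also holds miR-216b-5p and miR-34b-3p, which did not pass the threshold, as the partners of miR-216a-5p and miR-34c-3p.
miR-216a-5p: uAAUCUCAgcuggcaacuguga
miR-216b-5p: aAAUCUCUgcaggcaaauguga
miR-217-5p: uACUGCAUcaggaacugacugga
miR-202-5p: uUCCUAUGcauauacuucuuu
miR-202-3p: aGAGGUAUagcgcaugggaaga
miR-335-5p: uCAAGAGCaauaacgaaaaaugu
miR-34c-3p: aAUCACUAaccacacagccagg
miR-34b-3p: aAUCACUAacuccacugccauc
miR-7687-3p: cCACUCAGucgccccgccaca
The sequences of miR-216a-5p and miR-216b-5p were identical at 18 of 22 positions and differed at the last base of the seed. Those of miR-34c-3p and miR-34b-3p were identical at 17 of 22 positions and had the same seed. The remaining differentially expressed miRNA was miR-122-5p.

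At month 3, 8 of 483 plasma miRNA (1.66%) were differentially expressed between irradiated and sham C57Bl/6 mice in the quasi-likelihood test of edgeR, with p-values adjusted by the Benjamini-Hochberg method (adjusted p) and a threshold of 0.05. Higher in irradiated mice were miR-216a-5p and miR-217-5p of pancreatic acinar cells, miR-122-5p of hepatocytes, miR-335-5p, miR-34c-3p and miR-7687-3p. Lower were both arms of the miR-202 hairpin, a miRNA of the gonads. The largest rise by fitted value was 3.58 for miR-7687-3p and the largest fall -4.58 for miR-202-5p, both on the log2 scale and both from low read numbers. An unadjusted p under 0.05 was found for 53 miRNA (11%). The fold changes of all 483 miRNA had a median of -0.05, and 216 were above 0.

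**Figure D1:**
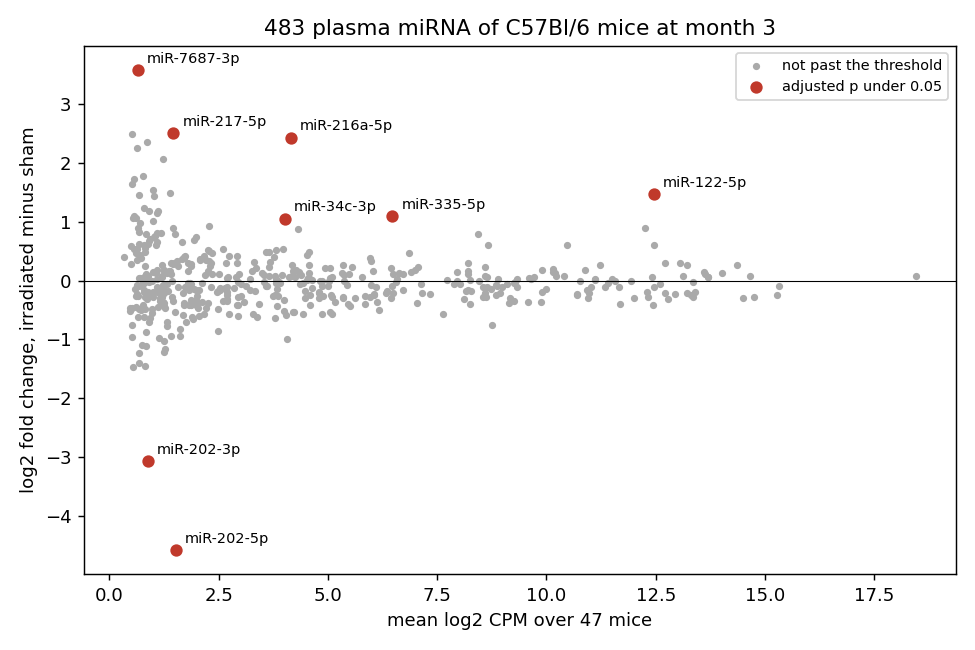
Fitted log2 fold change (irradiated minus sham, vertical axis) against mean log2 CPM over 47 mice (horizontal axis) for 483 plasma miRNA of C57Bl/6 mice at month 3, with the 8 differentially expressed miRNA named in red. Only miR-122-5p among these 8 lies above a mean of 10 log2 CPM, and the most abundant miRNA, at 18.5 log2 CPM, lies near 0.

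The miRNA with the smallest adjusted p was miR-216a-5p, which with miR-216b and miR-217 is transcribed from a cluster active in the acinar cells of the pancreas. Its hairpin lies at chr11:28757012-28757083 (GRCm38, plus strand), in an intron of the long noncoding RNA Gm12082. Read numbers of miR-216a-5p ranged from 3 to 305 (median 62) in the 31 irradiated mice and from 0 to 105 (median 9) in the 16 sham mice. Of the irradiated mice, 17 lay above every sham mouse and 29 above the sham median, so the groups overlapped, with 2 irradiated mice below the sham median. The levels were 4.94 ± 1.26 log2 CPM (SD, n = 31) after irradiation and 2.63 ± 1.08 (SD, n = 16) after sham treatment. Irradiated minus sham, the log2 fold change was 2.43 (adjusted p = 4.81e-08 by edgeR) with a standard error (SE) of 0.38, and the two-sided permutation p of the difference in means was 1e-05, the smallest that 100000 resamples can give. The difference passed the threshold in 18 of 18 alternative analyses, those without a single mouse aside, with log2 fold changes from 2.21 to 2.80.

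The neighbour miR-217-5p rose as well, at much lower read numbers. Its hairpin starts 6644 bases beyond that of miR-216a, at chr11:28763728-28763835 on the plus strand of GRCm38, in an intron of the same noncoding RNA. At least 1 read of miR-217-5p was found in 25 of 31 irradiated mice and in 6 of 16 sham mice, with a range of 0 to 21 (median 8) and 0 to 13 (median 0) reads. Its log2 fold change was 2.51 (SE 0.59, adjusted p = 0.00156 by edgeR). The summed reads, 214 against 20, gave a ratio of 5.37 per total read (95% interval 3.39 to 8.97, counting error only).

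Of miR-216b-5p, whose hairpin lies 10735 bases before that of miR-216a, reads were found in 10 of 31 irradiated mice and in 1 of 16 sham mice. Its log2 fold change of 2.25 did not pass the threshold (adjusted p = 0.112 by edgeR). Without that single sham mouse, the female 1025, the value was 3.76 (adjusted p = 0.000827 by edgeR). No sham read was left in that fit, so a larger value was certain and says nothing more about this miRNA. Over the acinar list, 3 of 7 mature miRNA passed the filter on low counts, 2 were higher in irradiated mice, against 1.24% of all miRNA, and the median log2 fold change was 2.43. These members come from the same gene cluster, and the list was chosen with earlier results of these data known. Its share of calls is therefore a description and no independent support. The summed share of the list was 0.000291 to 0.0209% of the reads (median 0.00472%) in irradiated and 0 to 0.00421% (median 0.000599%) in sham mice.

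The sham male 1004 had the most reads of the sham mice for both acinar miRNA at month 3, with 105 reads of miR-216a-5p and 13 of miR-217-5p. At its other times it had 0 to 29 reads of miR-216a-5p. Its reads of miR-217-5p were 11 at day 2, where the level was 2.56 log2 CPM against 2.47 at month 3, and 0 to 4 at the remaining times. Without this mouse the log2 fold changes were 2.90 for miR-216a-5p and 3.49 for miR-217-5p, and the number of differentially expressed miRNA stayed at 8. Leaving out the highest sham mouse was certain to raise both values. Of the endocrine list, none of the 3 miRNA that passed the filter was called, and miR-375-3p, a miRNA of islet cells, had a log2 fold change of -0.02 (SE 0.17, adjusted p = 0.98 by edgeR). In bulk plasma, the number of cells that release a miRNA and the amount released per cell cannot be told apart.

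The miRNA of the liver was the only abundant one among the 8. miR-122-5p, which makes up most of the miRNA of hepatocytes, had 4853 to 45483 reads (median 13044) in irradiated and 2319 to 13407 (median 5878) in sham mice. Of the irradiated mice, 15 lay above every sham mouse and 30 above the sham median. The levels were 12.92 ± 0.94 log2 CPM (SD, n = 31) and 11.54 ± 0.86 (SD, n = 16), a log2 fold change of 1.47 (SE 0.35, adjusted p = 0.00156 by edgeR). The two-sided permutation p was 4e-05. As a share of all reads, the 2 arms of miR-122 together made up 0.313 to 5.51% (median 0.858%) in irradiated and 0.126 to 0.771% (median 0.337%) in sham mice.

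The passenger arm miR-122-3p moved in the same direction without passing. It was read in 15 of 31 irradiated and in 2 of 16 sham mice, with a log2 fold change of 2.36 (adjusted p = 0.112 by edgeR). It passed when the sham female 1028 (3.39, adjusted p = 0.00694) or the sham female 1025 (2.79, adjusted p = 0.0441) was left out. These were the 2 sham mice with a read, so a larger value was certain and says nothing more about this miRNA. The wider list of liver, gut and kidney epithelium held 6 tested members with no call and a median log2 fold change of 0.12. Among them miR-192-5p, a miRNA of liver and intestine, was 12.66 ± 0.55 log2 CPM (SD, n = 31) against 12.10 ± 0.47 (SD, n = 16), a value of 0.60 (SE 0.18, adjusted p = 0.0591 by edgeR). The value for miR-802-5p, made in liver and pancreas, was 0.88 (adjusted p = 0.224). For miR-192-3p, the other arm, it was 0.08, and for miR-194-5p and miR-194-2-3p it was -0.28 and -0.19. miR-215-5p, which has the same seed as miR-192-5p, had a value of 0.15.

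Among the irradiated mice, those with more miR-122-5p had more miR-192-5p. Pearson's r was 0.898 and Spearman's rho 0.883 over 31 mice (permutation p = 1e-05 for each, adjusted p = 4e-05 over 4 relations). Without the 2 mice farthest from the median of miR-122-5p, r was 0.852. Within the 16 females r was 0.910 and within the 15 males 0.874. The acinar pair moved together less tightly, with r = 0.361 and rho = 0.445 for miR-216a-5p and miR-217-5p (permutation p = 0.0433 and 0.0123, adjusted over the 4 relations to the same values), and r was 0.433 without the 2 farthest mice, 0.563 in females and 0.282 in males. The leukocyte pair miR-150-5p and miR-142a-3p, which did not differ between the groups, gave r = 0.526 and rho = 0.657 (permutation p = 0.00344 and 0.00013, adjusted p = 0.00459 and 0.000173). For that pair r was 0.792 without the 2 farthest mice, 0.450 in females and 0.704 in males. All values of a sample share its library and its scaling.

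Both arms of miR-202, which is expressed in the ovary and testis, were lower in irradiated mice. The hairpin lies at chr7:139957689-139957760 on the minus strand of GRCm38, in an exon of the long noncoding RNA Gm2044. Reads of miR-202-5p were 0 in 19 of 31 irradiated mice, with a maximum of 10, against 0 to 199 (median 18) in sham mice. Every irradiated mouse lay below the sham median, 3.17 log2 CPM, but none lay below every sham mouse because some sham mice also had no read. The log2 fold change was -4.58 (SE 0.71, adjusted p = 4.81e-08 by edgeR). Reads of miR-202-3p were 0 in 27 of 31 irradiated mice and in 4 of 16 sham mice, with a log2 fold change of -3.07 (SE 0.68, adjusted p = 0.000769).

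The fall of miR-202 was measured in females. In the 16 irradiated females miR-202-5p had 0 to 4 reads, with no read in 12, and in the 8 sham females 27 to 199 (median 62.5), so the groups did not overlap. Males were at 0 to 10 reads (median 1) after irradiation and at 0 to 9 (median 2) after sham treatment. The log2 fold change was -7.02 (SE 0.68, adjusted p = 8.80e-21 by edgeR) in females and 0.22 (SE 0.73, adjusted p = 0.989) in males, and the difference between the sexes was -7.24 (SE 1.05, adjusted p = 4.47e-09). For miR-202-3p no read was found in any of the 16 irradiated females, while the sham females had 4 to 25 reads each and 88 in all. Against a floor of 3 reads over the irradiated females, the pooled reads of miR-202-3p were 70.6-fold higher in sham females, without regard to the spread between mice. In males the log2 fold change of miR-202-3p was -0.49, and the sexes differed by -5.76 (SE 1.10, adjusted p = 5.03e-05 by edgeR).

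Blocking by mouse changed the call of miR-202-5p. With the mouse as a fixed block, which compares each mouse with its own sample before irradiation in 27 irradiated and 16 sham mice of both sexes, the value was -2.35 and did not pass (adjusted p = 0.146 by limma). With the mouse as a random block it was -3.26 (adjusted p = 0.00046 by limma). miR-202-3p passed under both, with -2.39 (adjusted p = 0.0259) and -2.34 (adjusted p = 0.00302).

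miR-335-5p, a miRNA from an intron of the imprinted gene Mest, was higher in nearly every irradiated mouse. Its hairpin lies at chr6:30741299-30741396 on the plus strand of GRCm38. Reads ranged from 51 to 1272 (median 190) in irradiated and from 45 to 223 (median 112) in sham mice. Of the irradiated mice, 13 lay above every sham mouse and 30 of 31 above the sham median. The levels were 6.85 ± 0.55 log2 CPM (SD, n = 31) and 5.74 ± 0.62 (SD, n = 16), a log2 fold change of 1.10 (SE 0.24, adjusted p = 0.000769 by edgeR). The two-sided permutation p was 2e-05.

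The miR-34 family is induced by p53 after DNA damage, and its members miR-34b and miR-34c are also abundant in ciliated cells of the airways. miR-34c-3p, from a hairpin at chr9:51103034-51103110 on the minus strand of GRCm38, had 2 to 110 reads (median 40) in irradiated and 0 to 35 reads in sham males and 17 to 67 in sham females. Of the irradiated mice, 16 lay above every sham mouse. The levels were 4.41 ± 0.87 log2 CPM (SD, n = 31) and 3.24 ± 1.33 (SD, n = 16), with the sham males at 2.34 ± 1.36 (SD, n = 8) and the sham females at 4.15 ± 0.30 (SD, n = 8). The log2 fold change was 1.05 (SE 0.26, adjusted p = 0.00337 by edgeR). It did not pass in a fit of the 47 samples alone (adjusted p = 0.0716 by edgeR) or with the mouse as a fixed block (1.13, adjusted p = 0.293 by limma), and it passed in 11 of 18 alternatives (adjusted p between 0.000296 and 0.518).

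miR-34a-5p, the family member most widely induced by p53, was 8.87 ± 0.40 log2 CPM (SD, n = 31) against 8.24 ± 0.50 (SD, n = 16), and 28 of 31 irradiated mice lay above the sham median. Its log2 fold change of 0.61 (SE 0.21) did not pass in the fit of all samples (adjusted p = 0.115 by edgeR). It passed in the fit of the 47 samples alone (adjusted p = 0.00522 by edgeR) and with the mouse as a fixed block (0.91, adjusted p = 0.00994 by limma) or a random block (0.64, adjusted p = 0.0259 by limma), in all in 8 of 18 alternatives (adjusted p between 0.000795 and 0.344). miR-34b-3p, which shares the seed of miR-34c-3p and comes from a hairpin 451 bases away, had a value of 0.49 (adjusted p = 0.519 by edgeR). The other arm of the miR-34c hairpin, miR-34c-5p, had a value of 0.06 (adjusted p = 0.949 by edgeR). For miR-34b-5p and miR-449a-5p the values were -0.06 and -0.33. Over the miR-34 and miR-449 list, 6 of 8 members passed the filter, 1 was called, and the median log2 fold change was 0.27.

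The remaining differentially expressed miRNA, miR-7687-3p, was near the detection limit. Its hairpin lies in an intron of Gse1, at chr8:120538696-120538754 on the plus strand of GRCm38. It was read in 12 of 31 irradiated mice, with at most 12 reads, and in 1 of 16 sham mice with 1 read. The log2 fold change was 3.58 (SE 0.81, adjusted p = 0.00099 by edgeR), and the summed reads, 58 against 1, gave a ratio of 29.1 per total read (95% interval 5.02 to 1169, counting error only). The permutation p of the log2 CPM values was 0.0127. It did not pass after the study's normalization (0.62, adjusted p = 0.129 by limma) or with the mouse as a fixed block (1.25, adjusted p = 0.44 by limma), and it passed in 10 of 16 alternative analyses.

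**Figure D2:**
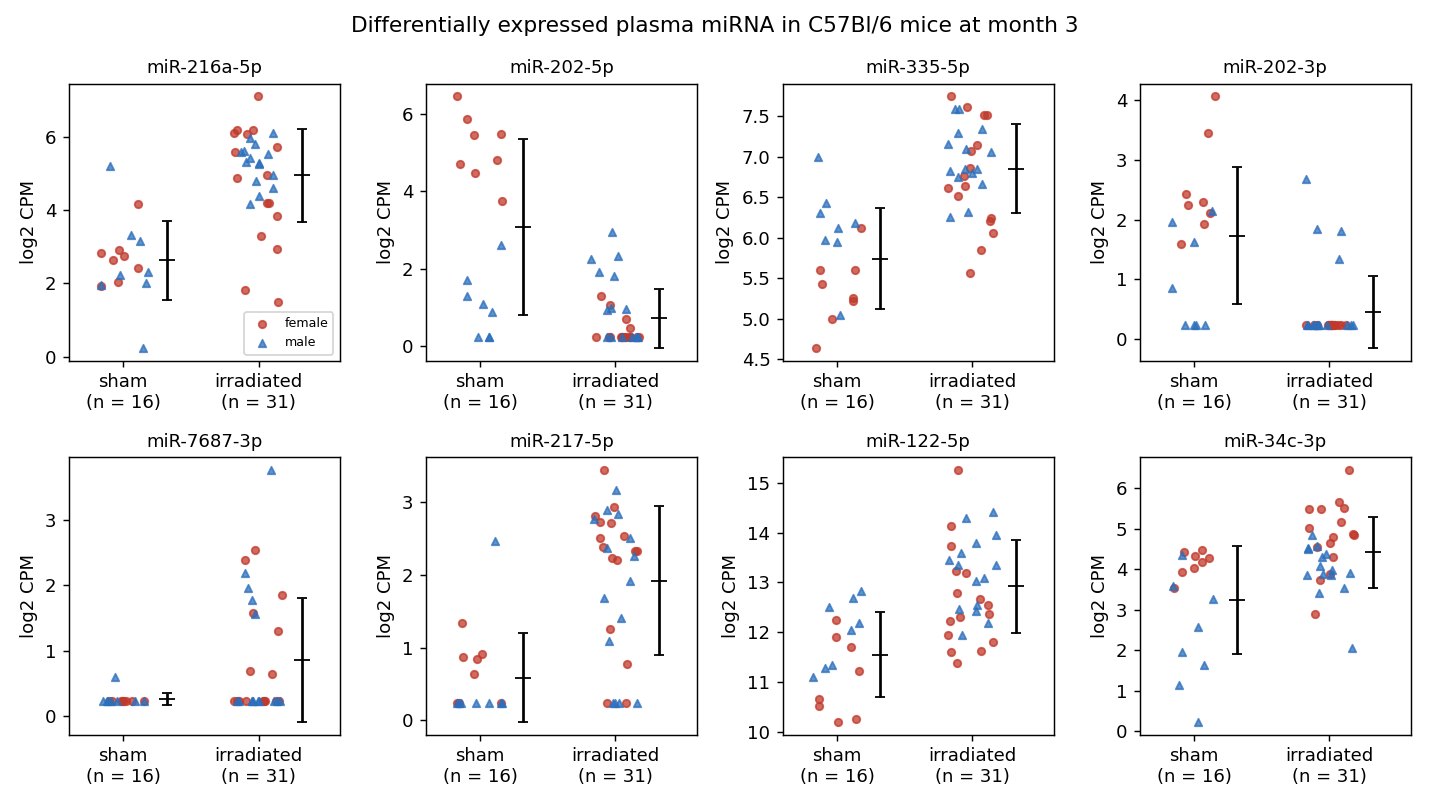
Log2 CPM (vertical axis) of the 8 differentially expressed miRNA in each of 16 sham and 31 irradiated C57Bl/6 mice at month 3, with females as red circles, males as blue triangles, and the mean and SD of a group as a black bar. The irradiated mice lie higher for 6 miRNA, and the high miR-202-5p values are those of the 8 sham females, with 27 to 199 reads.

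The 10 miRNA next in order of unadjusted p did not pass. Beside miR-192-5p, miR-216b-5p, miR-122-3p, miR-34a-5p and miR-802-5p, they were miR-540-5p, miR-31-5p, miR-5107-3p, miR-10b-5p and miR-30a-5p. miR-540-5p, from the imprinted cluster of chromosome 12, was read in 11 of 31 irradiated mice and 1 of 16 sham mice, with 59 and 2 reads in all (ratio 14.8 per total read, 95% interval 3.92 to 125), and its value was 2.49 (adjusted p = 0.0568 by edgeR). It passed in 13 of the 47 analyses that left out 1 mouse each, with an adjusted p of 0.00248 without the sham mouse 1040. No sham read of miR-540-5p was left in the fit without 1040, so a larger value was certain there and says nothing more about this miRNA. The values of miR-31-5p and miR-10b-5p, the latter encoded among the Hoxd genes, were -0.57 and -0.56 (adjusted p = 0.112 and 0.211), and miR-31-5p passed without the irradiated mouse 1099 (-0.67, adjusted p = 0.0251). miR-5107-3p had a value of 2.08 (adjusted p = 0.126) and passed without the sham mouse 1028 (2.72, adjusted p = 0.0209) and with the mouse as a fixed block (2.63, adjusted p = 0.0259 by limma). miR-192-5p passed with the fixed block as well (0.78, adjusted p = 0.00686 by limma) and in 9 of the 47 analyses without 1 mouse. The value of miR-30a-5p was 0.26 (adjusted p = 0.224 by edgeR).

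The most abundant plasma miRNA showed small differences. None of the 10 with the highest mean level passed, and their log2 fold changes lay between -0.30 for miR-125b-5p and 0.27 for miR-126a-5p. miR-16-5p, the most abundant, was 18.47 ± 0.58 log2 CPM (SD, n = 31) with and 18.42 ± 0.47 (SD, n = 16) without irradiation. The red blood cell miRNA miR-486a-5p and miR-451a had values of 0.06 and -0.11.

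Lists of miRNA typical of other cell types held no call. The lymphoid list had 4 tested members with a median of -0.05, and miR-150-5p, a miRNA of mature lymphocytes, was 13.31 ± 0.51 log2 CPM (SD, n = 31) against 13.05 ± 0.46 (SD, n = 16), a value of 0.27 (adjusted p = 0.519 by edgeR). The 4 leukocyte and myeloid members had a median of -0.04. Of the inflammation feedback list (median 0.14), miR-146a-5p, induced by NF-kB, had a value of 0.31 at an unadjusted p of 0.039. The other members of that list, miR-155-5p and miR-146b-5p, had values of 0.14 and -0.23. The fibrosis list of miR-21a and the miR-29 family, which restrains collagen messages, had 5 tested members, a median of -0.04 and values from -0.37 to 0.06.

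Muscle miRNA varied widely between mice. The 4 tested skeletal muscle members all had positive values (0.60 to 0.89, median 0.73), but the SD of miR-206-3p over mice was 1.77 log2 CPM in irradiated and 2.01 in sham mice. The list's summed share ranged from 0.0208 to 5.82% of the reads in irradiated and from 0.0205 to 2.27% in sham mice. The 3 miRNA encoded within cardiac and other myosin genes had values of 1.77 for miR-208b-3p (unadjusted p = 0.0179), 1.01 for miR-208a-3p and 0.18 for miR-499-5p.

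Values below 0 prevailed in 3 other lists, none with a call. All 8 stromal and smooth muscle members (median -0.26), all 9 members of the let-7 list (median -0.22) and 9 of 10 epithelial members (median -0.29) were negative. The largest of these differences were those of miR-96-5p (-0.99, unadjusted p = 0.0117) and miR-200c-3p (-0.76, unadjusted p = 0.0209), both epithelial. The median of the 483 miRNA was -0.05. The 13 tested members of the miR-17 to miR-92a family had a median of 0.08, the endothelial pair miR-126a-3p and miR-126a-5p 0.17, the 6 neural members 0.16, and the hypoxia pair of miR-210 -0.36.

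**Figure D3:**
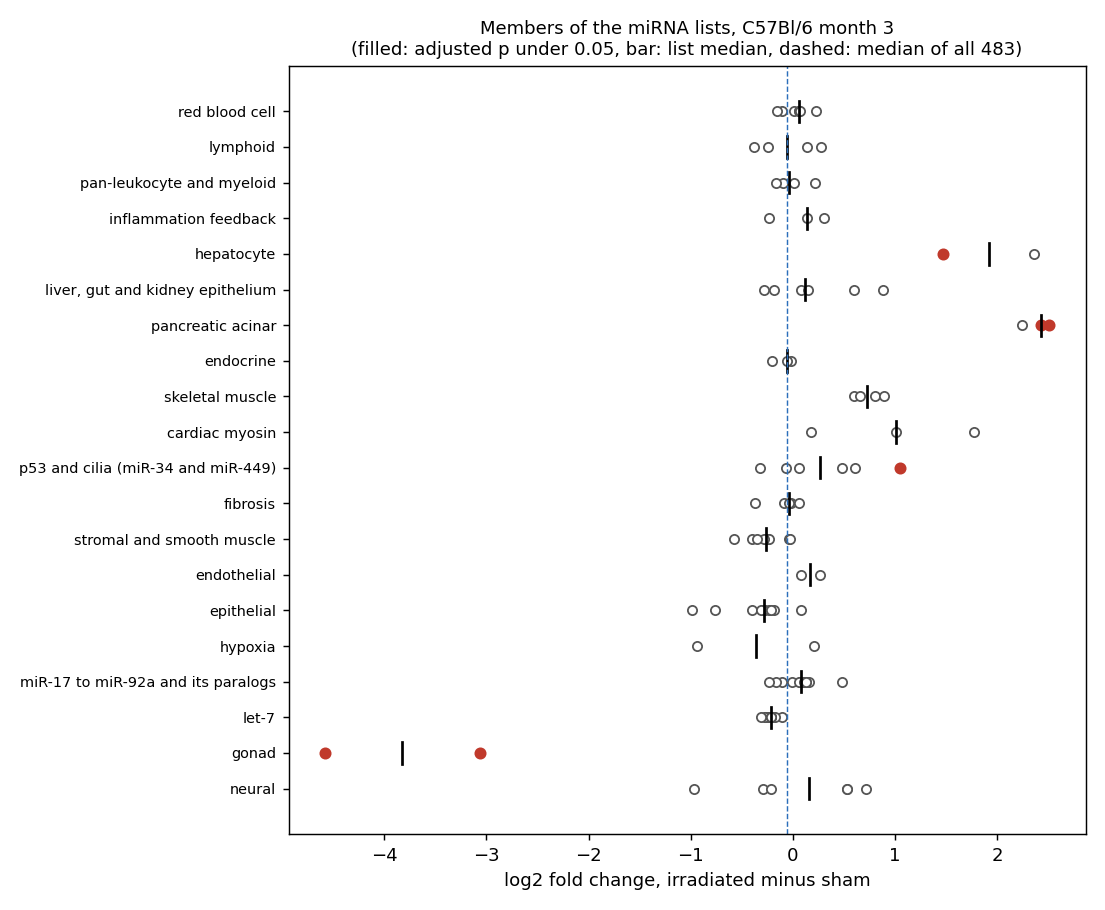
Log2 fold change (irradiated minus sham, horizontal axis) of each tested member of 20 miRNA lists in C57Bl/6 mice at month 3, with red points for differentially expressed members, a black bar for the list median and a dashed line for the median of all 483 miRNA, -0.05. The pancreatic acinar list (median 2.43) and the gonad list (median -3.83) lie farthest from that line. The tested members of the former come from the same cluster, and those of the latter from the same hairpin. All lists were chosen with earlier results of these data known.

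The study used both sexes, and the effect was estimated in each. Of 483 miRNA, 6 (1.24%) were differentially expressed in females and 3 (0.621%) in males by edgeR. miR-216a-5p was called in both, with log2 fold changes of 2.68 in females (adjusted p = 7.67e-05) and 2.23 in males (adjusted p = 0.00374). In males all 15 irradiated mice had at least 18 reads of it, while the sham males had a median of 6.5. In females the irradiated mice ranged from 3 to 305 reads and the sham mice from 6 to 27.

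miR-335-5p was 1.49 higher in irradiated females (adjusted p = 0.00124 by edgeR) and had a value of 0.81 in males (adjusted p = 0.292). miR-122-5p gave 1.82 in females (adjusted p = 0.0136) and 1.24 in males (adjusted p = 0.267). miR-217-5p gave 2.93 (adjusted p = 0.0458) and 2.12 (adjusted p = 0.267), and miR-34c-3p gave 0.89 (adjusted p = 0.265) and 1.39 (adjusted p = 0.0233). Fitted on the month 3 samples of a sex alone, neither miR-217-5p in females (adjusted p = 0.0521 by edgeR) nor miR-34c-3p in males (adjusted p = 0.176) passed. For none of these 5 did the sexes differ by the test of the difference, with adjusted p from 0.931 to 0.984, and the standard error of that difference was 0.66 for miR-216a-5p.

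The effect differed between the sexes for 4 of 483 miRNA (0.828%), and 30 had an unadjusted p under 0.05. Beside both arms of miR-202 these were miR-6900-3p and miR-6944-3p, at low read numbers. No read of miR-6900-3p was found in the 15 irradiated males, while the 8 sham males had 20 in all, with none in 5 of them. Against a floor of 3 reads over the irradiated males, the pooled reads were 11.4-fold higher in sham males. That ratio takes no account of the spread between mice and is no lower bound. In females it had 0 to 9 reads after irradiation and 0 to 2 after sham treatment. The difference of females minus males was 6.70 (adjusted p = 0.000136 by edgeR) and did not pass with the mouse as a random block (2.65, adjusted p = 0.17 by limma). For miR-6944-3p, with at most 7 reads in any mouse, the difference was 5.59 (adjusted p = 0.026 by edgeR) and 2.33 with that block (adjusted p = 0.367 by limma).

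**Figure D4:**
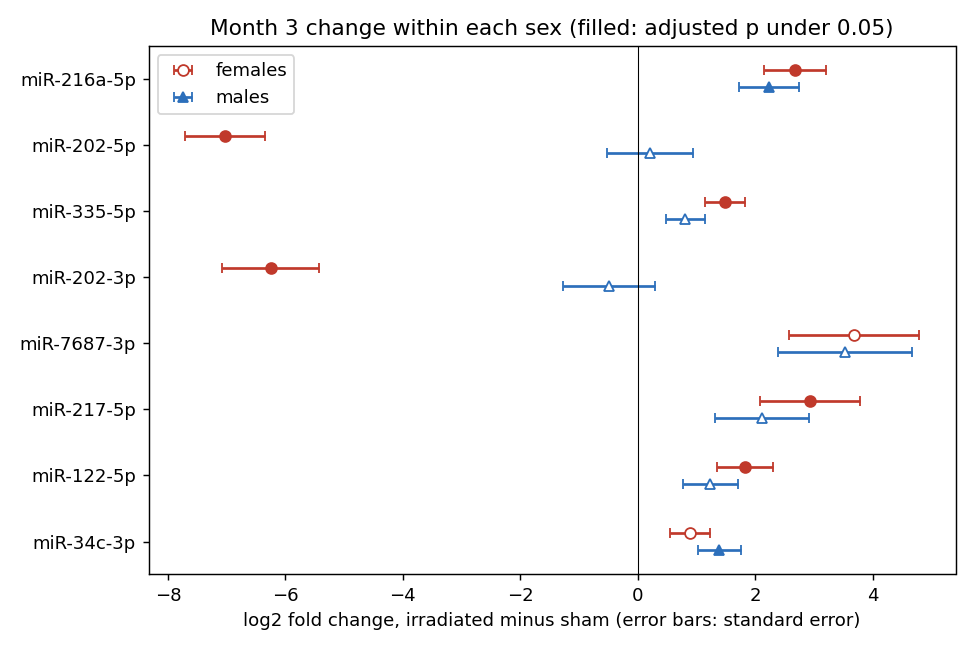
Log2 fold change (irradiated minus sham, horizontal axis) of the 8 differentially expressed miRNA in females (red circles, 16 irradiated and 8 sham) and males (blue triangles, 15 and 8), with standard errors as bars and filled symbols for an adjusted p under 0.05. The sexes lie far apart for the arms of miR-202, at -7.02 and 0.22 for miR-202-5p.

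Mice with the letters A and B were compared in the same way. The effect differed between them for 0 of 483 miRNA by edgeR, with 15 at an unadjusted p under 0.05. miR-216a-5p gave 2.30 in mice with the letter A and 2.79 in those with B, miR-122-5p 1.61 and 1.31, and miR-335-5p 1.30 and 0.87. miR-202-5p gave -5.06 and -3.93, and miR-202-3p -4.23 and -1.86.

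The 8 miRNA followed different courses over the times at which C57Bl/6 plasma was sampled. Samples up to month 1 also came from mice of another cohort, and those at days 2 and 5 from different mice. Before irradiation 0 of 483 miRNA were differentially expressed by edgeR, with 25 at an unadjusted p under 0.05. The number was 32 (6.63%) at day 2, 68 (14.1%) at day 5, 18 (3.73%) at month 1, 16 (3.31%) at month 2, 23 (4.76%) at month 4, 17 (3.52%) at month 5 and 2 (0.414%) at month 6, when 8 irradiated mice were sampled.

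miR-216a-5p was called at each of months 1 to 6, with log2 fold changes of 2.07, 3.06, 2.43, 2.30, 1.53 and 3.03, after values of 1.04 and 1.12 at days 2 and 5 that did not pass. Its level in irradiated mice was 1.97 log2 CPM before irradiation, 4.09 at month 1, 4.83 at month 2 and 4.94 at month 3, while sham mice were between 1.37 and 2.69 throughout. miR-217-5p was called at months 1 to 4 and at month 6. Its fold changes were 1.83, 2.65, 2.51, 1.80 and 3.91.

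miR-122-5p turned from lower to higher. Its log2 fold change was -1.69 at day 2 and -1.74 at day 5, both called, -0.55 at month 1, then 1.36 at month 2, 1.47 at month 3, 2.97 at month 4 and 3.23 at month 5, all 4 called, and 1.10 at month 6, which was not. From month 3 to month 4 the effect grew by 1.50 (SE 0.46), a difference that did not pass (adjusted p = 0.0804 by edgeR). miR-335-5p was called at month 3, month 4 (1.15) and month 5 (1.26), after values of 0.29 at month 1 and 0.62 at month 2. From month 2 to month 3 its effect differed by 0.47 (SE 0.32, adjusted p = 0.975).

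miR-202-5p was higher in irradiated mice at day 2 (2.2, called) and lower from month 1 to month 5 (-3.10, -3.89, -4.58, -3.46 and -2.84, all called). miR-202-3p was higher at day 2 (3.24) and lower at months 1, 2 and 3. miR-34c-3p was called at day 2 (1.21), day 5 (0.99) and months 2 to 5 (0.94 to 1.25), with 0.25 at month 1. miR-7687-3p was called at month 3 and at no other time, with values of 0.96 at month 2 and -1.46 at month 4.

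Month 3 was also compared with its neighbours directly, between contrasts on mostly the same mice. The effect at month 3 differed from that at month 2 for 0 of 483 miRNA by edgeR, with 18 at an unadjusted p under 0.05, 0 by limma-voom and 0 with the mouse as a random block. The effect at month 4 differed from that at month 3 for 4 (0.828%) by edgeR. These were miR-7687-3p (-5.04), miR-540-5p (-3.98) and miR-204-5p (-1.47), whose effects were lower at month 4, and miR-350-5p (4.49). With the mouse as a random block 0 passed (adjusted p = 0.0759, 0.332, 0.0759 and 0.535 by limma).

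**Figure D5:**
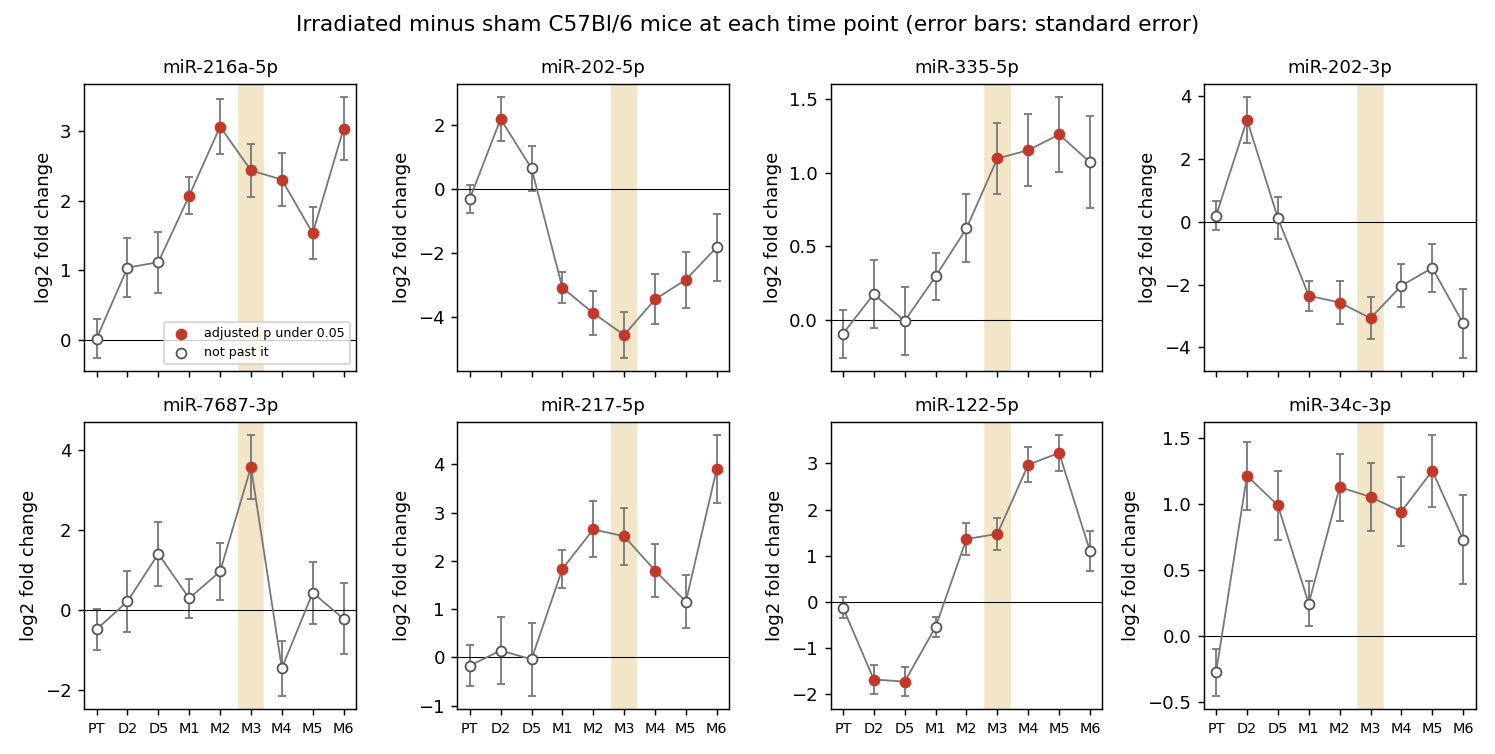
Log2 fold change (irradiated minus sham C57Bl/6 mice, vertical axis) of the 8 differentially expressed miRNA before irradiation (PT), at days 2 and 5 (D2, D5) and at months 1 to 6 (M1 to M6), with standard errors as bars, filled red points for an adjusted p under 0.05 and month 3 shaded. miR-216a-5p stays between 1.53 and 3.06 from month 1 on, and miR-122-5p goes from -1.74 at day 5 to 3.23 at month 5.

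Changes within the same mice were given by the 27 irradiated and 16 sham mice that had a sample before irradiation. miR-216a-5p was higher at month 3 than before in 27 of 27 irradiated mice, by 3.16 ± 1.35 log2 CPM (SD), and in 10 of 16 sham mice, by 0.87 ± 1.29. miR-335-5p rose in 25 of 27 irradiated mice by 1.52 ± 1.20 and in 6 of 16 sham mice, whose mean change was -0.14 ± 0.98. miR-122-5p rose in 25 of 27 by 1.79 ± 1.21 and in 6 of 16, with -0.18 ± 1.34. For miR-217-5p, 22 of 27 irradiated mice rose and 0 fell, while 3 of 16 sham mice rose and 7 fell.

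For miR-34c-3p the sham mice moved as well. It was higher than before irradiation in 21 of 27 irradiated mice, by 0.45 ± 1.20 log2 CPM (SD), and lower in 12 of 16 sham mice, with a mean change of -0.84 ± 1.54. Compared with month 1 it was lower at month 3 in 24 of 31 irradiated and in 16 of 16 sham mice.

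Irradiated mice with a high level of miR-216a-5p at month 2 tended to have a high level at month 3. Over 31 mice r was 0.547 and rho 0.675 (permutation p = 0.00175 and 4e-05, adjusted p = 0.0035 and 8e-05 over 4 relations), and r was 0.593 without the 2 mice farthest from the month 2 median. It was 0.792 in the 16 females and 0.626 in the 15 males. From month 2 to month 3 the level rose in 22 and fell in 9 of the 31 mice.

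The study compared C57Bl/6 with C3H mice, which were sampled at month 3 in 27 irradiated and 16 sham animals. The irradiation effect differed between the strains for 2 of 483 miRNA (0.414%) by edgeR, with 29 at an unadjusted p under 0.05. For miR-216a-5p the effect of C57Bl/6 minus that of C3H was 2.54 (SE 0.49, adjusted p = 0.000125), and it passed in all 4 alternative analyses of this difference. Its levels in C3H mice were 4.23 ± 1.06 log2 CPM (SD, n = 27) after irradiation and 4.42 ± 0.75 (SD, n = 16) after sham treatment, so both C3H groups lay nearer to the irradiated C57Bl/6 mice, at 4.94, than to the sham C57Bl/6 mice, at 2.63. For miR-540-5p the difference was 3.69 (adjusted p = 0.0483 by edgeR), which did not pass with the mouse as a random block (1.06, adjusted p = 0.654 by limma).

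The other called miRNA had these values side by side. The log2 fold change of miR-217-5p was 2.51 in C57Bl/6 and -0.16 in C3H mice, a difference of 2.67 that did not pass (adjusted p = 0.0658 by edgeR). For miR-335-5p the values were 1.10 and 0.23 (difference 0.87, adjusted p = 0.405), and for miR-122-5p 1.47 and 0.94 (difference 0.53, adjusted p = 0.915). miR-202-5p fell in both strains, by 4.58 and 5.05 on the log2 scale, and the difference was 0.47 (SE 1.06). miR-34c-3p rose in both, by 1.05 and 1.09, with a difference of -0.04 (SE 0.37).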

How the data were processed

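Plasma small RNA libraries of 899 samples were used. According to the methods of the study, samples with hemolysis and runs with few miRNA reads were left out, libraries were made with the QIAseq miRNA kit and reads were trimmed and aligned in Illumina's BaseSpace (mouse, mm10 per the labels). The authors deposited a table of raw counts per mature miRNA and sample that are not normalized. The miRBase release and the use of molecular identifiers are not given in the sources used here, so intervals cover counting error only. Groups, sex, mouse number and time point came from the sample labels. Lung and heart were not analysed here.

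Of 1915 miRNA, the 483 kept by filterByExpr (99.99% of reads) were tested. Counts were normalized by TMM in edgeR 4.0.16 (R 4.3.3), and a quasi-likelihood model with 32 group means was fitted to all samples (867 residual degrees of freedom). P-values were adjusted by Benjamini-Hochberg within a contrast, with a threshold of 0.05. Standard errors are the fold change divided by the root of the F statistic. Log2 CPM used a prior count of 2. Sex, letter, strain and time differences were contrasts of the same kind of model. Permutation tests were two-sided with 100000 resamples. Alternatives used limma 3.58.1 (with and without voom) and DESeq2 1.42.0, other filters, covariates and subsets. The procedure was tested on simulated counts.

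The mouse numbers pair samples of the same animal across time. After removing group means, samples of a mouse had a mean correlation of 0.0892 (1217 pairs, 99 abundant miRNA), against -0.00196 for different mice. The edgeR fits had no term for the mouse and treated repeated samples of a mouse as independent, also in the comparisons between months. The mouse was a replicate block only in the limma alternatives. Irradiated and sham samples of a time come from different mice.

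The miRNA named are those called at month 3, the next 10 by unadjusted p, the 10 most abundant, members of 20 marker lists, and those called for sex, strain or time differences. These members and lists were chosen with earlier results of these data known. Leaving out single mice was added after the data were seen.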

Additional observations from a re-analysis of the deposited data

Results flagged for a closer look

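The effect at month 3 differed between groups, by a test of the difference itself in edgeR, for 10 combinations of a miRNA and a comparison. Between the strains (C57Bl/6 minus C3H) these were miR-216a-5p (2.54) and miR-540-5p (3.69). Between months (month 4 minus month 3) they were miR-204-5p (-1.47), miR-350-5p (4.49), miR-540-5p (-3.98) and miR-7687-3p (-5.04). Between the sexes (females minus males) they were miR-202-3p (-5.76), miR-202-5p (-7.24), miR-6900-3p (6.70) and miR-6944-3p (5.59). All are differences of log2 fold changes.

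In 3 of the 15 sets of 8 sham mice of a sex that were tested for a single mouse far from the others, such a mouse was found, where about 1 in 20 is flagged by chance. The sham female 1025 had 4.16 log2 CPM of miR-216a-5p. The sham male 1004 had 2.47 log2 CPM of miR-217-5p and 0.60 of miR-7687-3p. For miR-7687-3p the value was a single read where 15 sham mice had none. Mouse 1004 was also the only sham male with a read of miR-217-5p. Both flags of this mouse were therefore bound to appear, and the rate of 1 in 20 does not hold for them.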

How the results depend on the processing

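The number of miRNA called at month 3 was 8. It was 33 with no filter on low counts, 3 in males only, 5 with letter A only and 2 with letter B only, and 6 to 12 in the other alternatives, with 10 for a mouse as a random replicate block (8 shared) and 8 for a fixed block (5 shared). Leaving out 1 mouse at a time gave 8 to 11, always with the same 8 among them. The 4 sex differences became 2 with the study's normalization and 24 without the filter. The 2 strain differences became 1 and 40. The 0 differences from month 2 became 16 without the filter, and the 4 differences from month 3 to 4 became 0 with limma-voom, 0 with the random block, 1 with the study's normalization and 41 without the filter. The causes were not tested, except that subsets hold fewer mice and no filter adds miRNA of few reads. miR-202-5p reversed to 0.20 in males only (adjusted p = 0.979 by edgeR). DESeq2 gave 8 calls, 6 of them shared. In letter B only, miR-122-5p (adjusted p = 0.0748), miR-335-5p (0.17) and miR-202-3p (0.459) did not pass by edgeR. In no single sex or letter fitted alone did miR-217-5p (adjusted p from 0.0521 to 0.508), miR-34c-3p (0.176 to 0.518) or miR-7687-3p (0.17 to 0.334) pass by edgeR. The block by mouse changed no other call of the miRNA named than those given beside the results. Depth limits miR-7687-3p, miR-217-5p, miR-540-5p and both arms of miR-202, at a few reads per sample. CPM values are shares, so a change in concentration of all miRNA would not be seen.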
